A study of Mus musculus with 20 samples.

Results

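The genes examined here were 10 genes of activated, phagocytic microglia, chosen by symbol: Trem2, Tyrobp, Cd68, Lyz2, Apoe, Cst7, Itgax, Lpl, Cd9 and Spp1. Each symbol matched 1 of the 29200 Ensembl genes in the count table, so all 10 were followed in the cerebellum of mice that carry the expansion of spinocerebellar ataxia type 3 (SCA3). The animals were male C57BL6/N mice. WT/WT mice carried 2 wild-type Atxn3 alleles (the labels name ataxin-2 here, while the knock-in and the study concern ataxin-3), and 304Q/304Q littermates carried 304 interrupted repeats in both alleles. The knock-in was 1 founder line made with zinc-finger nucleases, and the expanded gene stayed under its own promoter, so it was not limited to microglia or to any other cell type. The 20 libraries, 1 for each mouse, fell into 4 groups of 5: WT/WT and 304Q/304Q at 2 months, and WT/WT and 304Q/304Q at 12 months.

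Microglia are the resident macrophages of the brain. When they meet dying cells, damaged myelin or protein deposits they can leave their surveying, homeostatic state and take on a phagocytic one, often called disease-associated, in which genes for uptake, lysosomal breakdown and lipid handling are raised while homeostatic genes such as P2ry12 and Tmem119 are lowered. Trem2 is a receptor for lipids and lipoproteins and Tyrobp (DAP12) is the adaptor through which it signals; the later part of the program, with Cst7, Itgax, Lpl, Cd9 and Spp1, is known to depend on Trem2 in mouse models of amyloid deposition. Several of the genes are not particular to microglia: Apoe is made in quantity by astrocytes, Cd9 by oligodendrocytes and other cells, Spp1 by some hindbrain neurons, and Lyz2 by monocytes and neutrophils as well.

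The start regions of 4 of these genes are shown because they hold the motif TGANTCA, a loose form of the AP-1 site with the middle base left open. AP-1 is the Fos and Jun family, whose target genes include many of activated macrophages. RefSeq promoter windows of 300 bases were at hand for 8 of the 10 genes, all but Tyrobp and Lpl. Each stretch runs 5′ to 3′ on the strand of its gene, from 160 bases before the start to 10 bases after it (RefSeq, GRCm38.p6), and capitals mark the motif. Trem2 lies at chr17:48346241-48346410 (plus strand), Cd68 at chr11:69666161-69666330 (minus strand), Cst7 at chr2:150570255-150570424 (plus strand) and Itgax at chr7:128129390-128129559 (plus strand).
Trem2: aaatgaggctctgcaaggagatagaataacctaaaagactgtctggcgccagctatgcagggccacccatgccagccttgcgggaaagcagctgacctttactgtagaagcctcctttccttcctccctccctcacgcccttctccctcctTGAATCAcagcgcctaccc
Cd68: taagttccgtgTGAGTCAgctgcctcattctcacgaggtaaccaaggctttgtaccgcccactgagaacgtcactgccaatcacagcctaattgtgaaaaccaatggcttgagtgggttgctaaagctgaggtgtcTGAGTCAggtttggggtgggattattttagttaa
Cst7: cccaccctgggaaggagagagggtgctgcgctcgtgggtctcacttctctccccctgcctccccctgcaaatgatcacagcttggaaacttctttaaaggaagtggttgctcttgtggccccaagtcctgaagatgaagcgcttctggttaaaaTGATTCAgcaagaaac
Itgax: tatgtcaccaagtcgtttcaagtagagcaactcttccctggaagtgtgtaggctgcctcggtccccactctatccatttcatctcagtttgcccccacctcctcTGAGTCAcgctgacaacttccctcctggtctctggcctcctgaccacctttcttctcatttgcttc
In these windows the motif began 9 bases before the start of Trem2, 149 and 24 bases before that of Cd68, 6 bases before that of Cst7 and 56 bases before that of Itgax, so that 4 of the 8 genes held it. Among all 32851 RefSeq windows of that length, 7.81% held it on either strand, a share counted per window and not per gene. The matches in Cd68 and Itgax read TGAGTCA, the usual AP-1 site, while that in Trem2 read TGAATCA and that in Cst7 TGATTCA, which differ from it in the middle base. The PU.1 core GAGGAAG, searched on both strands, was in the windows of 2 of the 8 genes, Trem2 and Spp1, against 13.6% of all windows. The E-box TCACGTG bound by lysosomal regulators of the TFEB family was in none of the 8 and in 3.77% of all windows. These matches are letters in a window, and binding was not measured.

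Library totals lay between 11385380 and 27636687 counts, with a median of 13522932. Granule and Purkinje cell markers were high in every library, as the label cerebellum implies, and all 8 genes of a pan-microglia panel (among them C1qa, Ctss and Csf1r) were detected. In 6 libraries the dissection also held choroid plexus: the summed level of 7 choroid plexus markers was 413 to 2140 CPM (counts scaled to the library size) in 1 304Q/304Q mouse of 2 months, 3 WT/WT and 2 304Q/304Q mice of 12 months, and 13.3 to 31.2 CPM in the other 14. Blood markers were also uneven at 12 months, with 116 to 246 CPM in WT/WT and 96.2 to 112 CPM in 304Q/304Q mice. Atxn3 itself had a mean of 15.6 CPM in WT/WT and 14.3 CPM in 304Q/304Q mice of 12 months, which does not check the repeat length.

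At 12 months, 4 of the 10 genes were higher in 304Q/304Q than in WT/WT cerebellum, the lysosomal genes Cd68 and Lyz2 and the scarce transcripts Itgax and Lpl, with log2 fold changes (log2 FC) from 0.73 to 2.60. Trem2, Tyrobp and Cst7 lay above WT/WT on average without passing the threshold, and Apoe, Cd9 and Spp1 lay slightly below. A gene was called a differentially expressed gene (DEG) at an adjusted p of at most 0.05 in edgeR's quasi-likelihood test and a log2 FC of at least 0.5 in size. Averaged over the 20 libraries, 7 genes had 50 counts or more, and 2 of these were higher DEGs, where 1.26% of all 12153 genes tested were. With no filter on low counts, so that Cst7, Itgax and Lpl entered too, 4 of 10 were, against 0.712% of 29200 genes. In that fit the median log2 FC of the 10 genes was 0.61 and that of all genes was 0. In whole tissue, more microglia and more RNA of a gene per microglial cell cannot be told apart, and the same holds for less.

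**Figure D1:**
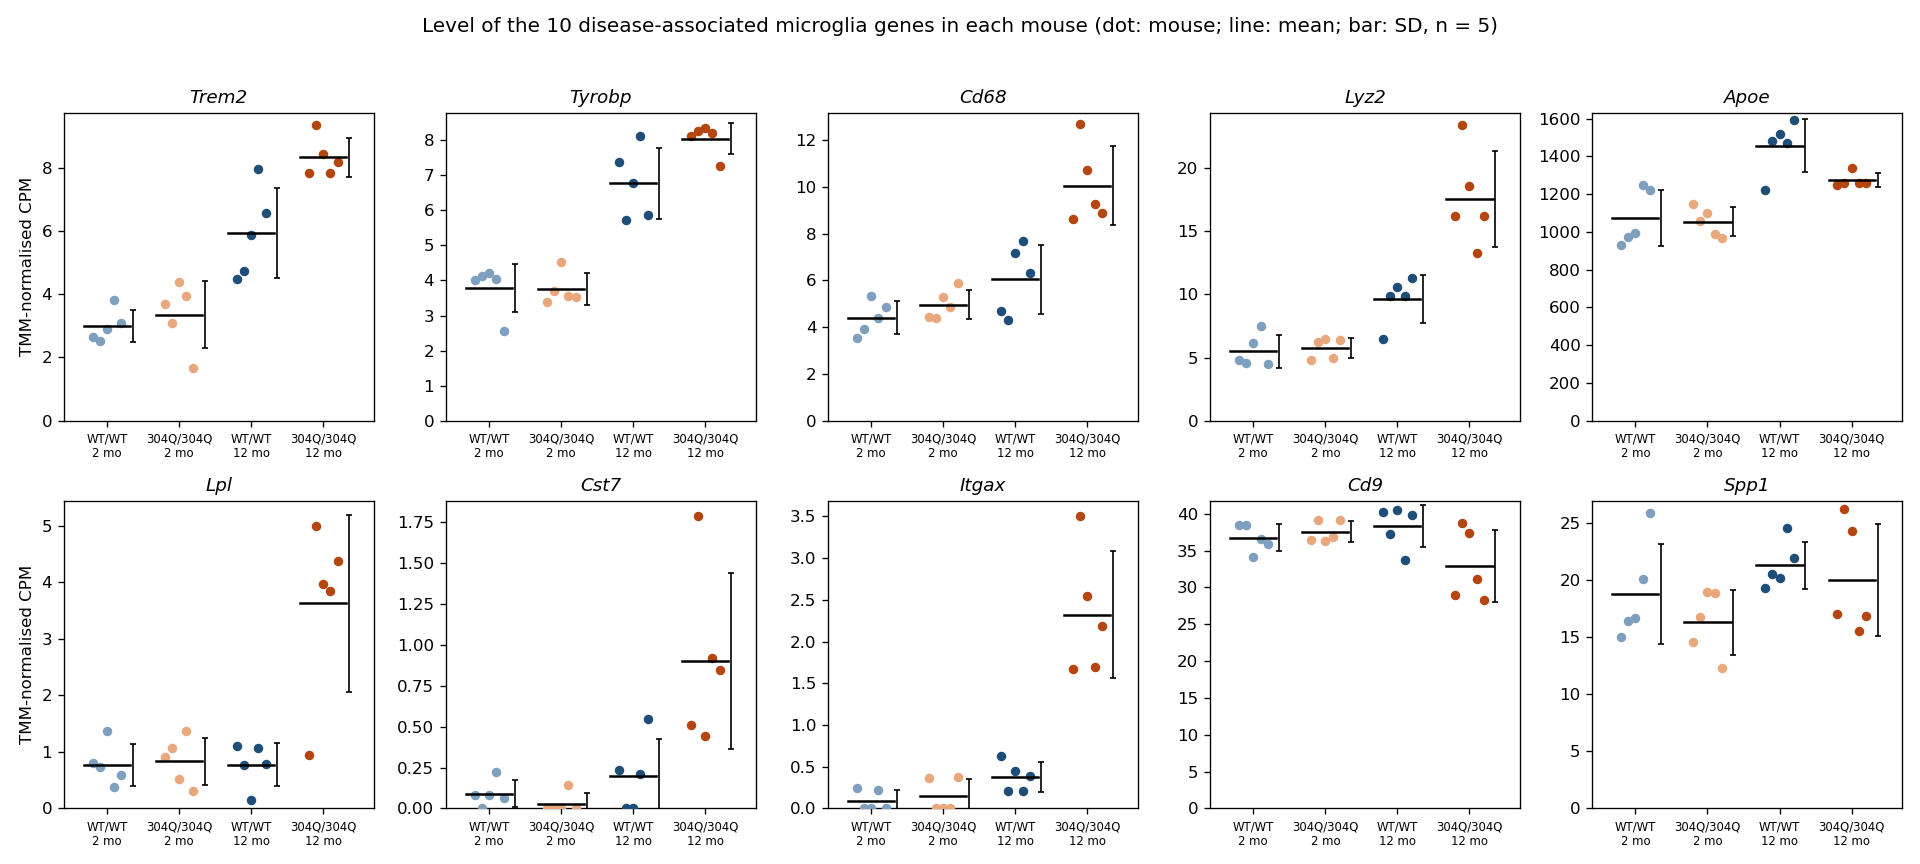
Level of each of the 10 genes in CPM (vertical axes, linear, from 0) in every mouse, by group; each point is 1 mouse, lines give the group mean and bars the SD over 5 mice. Cd68, Lyz2 and Itgax in the 304Q/304Q mice of 12 months lie above all WT/WT mice of that age, while Apoe, Cd9 and Spp1 overlap between genotypes.

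The receptor pair did not pass the test by genotype. Trem2 (ENSMUSG00000023992, chr17:48346401-48354147, plus strand) had 4.47, 4.74, 5.87, 7.97 and 6.56 CPM in the 5 WT/WT mice of 12 months. In the 304Q/304Q mice of that age it had 7.82, 9.35, 8.45, 7.82 and 8.19 CPM. The groups overlapped through WT/WT replicate 4, which lay above 2 of the 304Q/304Q mice. The log2 FC of 0.49 (SE 0.193) had an adjusted p of 0.0987 in edgeR, and it passed the test without WT/WT replicate 4 (0.62, adjusted p = 0.0457). Tyrobp (ENSMUSG00000030579, chr7:30413760-30417585, plus strand) lay at 5.72 to 8.12 CPM in WT/WT and at 7.27 to 8.36 CPM in 304Q/304Q mice. Its log2 FC of 0.25 (SE 0.145, edgeR adjusted p = 0.275) did not pass either. For both genes of the pair the estimate lay above 0.

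The lysosomal genes separated the genotypes. Cd68 (ENSMUSG00000018774, chr11:69664213-69666153, minus strand), a glycoprotein of late endosomes and lysosomes, had 4.7, 4.32, 7.15, 7.69 and 6.33 CPM in WT/WT mice. In 304Q/304Q mice it had 8.62, 12.7, 10.7, 9.28 and 8.9 CPM. All 5 knock-in mice were above all 5 WT/WT mice, the log2 FC was 0.73 (SE 0.168), and the adjusted p of 0.00468 in edgeR passed. Lyz2 (ENSMUSG00000069516, chr10:117277331-117282321, minus strand), lysozyme of macrophages, had 6.43, 9.9, 10.6, 9.88 and 11.3 CPM in WT/WT mice. In 304Q/304Q mice it had 16.2, 23.4, 18.6, 13.3 and 16.2 CPM. Again no knock-in mouse overlapped with a WT/WT mouse, and Lyz2 had the lower adjusted p of the pair (log2 FC 0.86, SE 0.168, adjusted p = 0.0011 in edgeR). The transcripts of Lyz2 and its neighbour Lyz1 are 96.0% identical over 1262 aligned bases, but Lyz1 had only 1, 2, 0 and 0 counts summed over the 5 mice of each group, so few reads were assigned to the copy. The study named Cd68, Lyz2 and Trem2 as microglia genes within a cluster of its genotype DEGs from these same samples, so their direction here is not independent evidence. Trem2 was thus a DEG in the study, which used DESeq2 and surrogate variables. Here Trem2 did not pass in edgeR (adjusted p = 0.0987), nor in DESeq2 with or without surrogate variables. In DESeq2 with surrogate variables Lyz2 was the only 1 of the 7 genes tested that was called.

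Cst7 (ENSMUSG00000068129, chr2:150570415-150578944, plus strand), which encodes the cysteine protease inhibitor cystatin F of endosomes and lysosomes, was close to the limit of detection. WT/WT mice of 12 months had 3, 0, 0, 3 and 7 counts, and 304Q/304Q mice had 7, 23, 5, 12 and 12 counts. For scale, 3 counts in a library are 0.108 to 0.264 CPM. In CPM 1 WT/WT mouse reached the range of the knock-in mice, and the pooled CPM of 304Q/304Q mice was 4.69 times that of WT/WT mice (95% interval from counting error alone 2.54 to 9.32). The edgeR fit without a filter gave an adjusted p of 0.135, while the exact permutation test on CPM gave an unadjusted p of 0.0238 (two-sided; 0.00794 is the smallest that 5 against 5 mice allow).

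Itgax (ENSMUSG00000030789, chr7:128129547-128150657, plus strand) encodes CD11c, an integrin subunit of dendritic cells and of activated microglia. WT/WT mice of 12 months had 8, 3, 6, 3 and 5 counts, and 304Q/304Q mice had 23, 45, 29, 22 and 31 counts. The groups were fully apart, with a pooled ratio of 6.2 (counting interval 4.04 to 9.88). It was a DEG in the fit without a filter (log2 FC 2.60, SE 0.595, edgeR adjusted p = 0.00427), and the exact permutation p was the smallest possible, 0.00794. Cd68, Lyz2 and Itgax were thus the 3 of 10 genes with no overlap at 12 months in the higher direction, beside 1.77% of all 29200 genes.

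Of the lipid genes Lpl was called and Apoe was not. Lpl (ENSMUSG00000015568, chr8:68880491-68907448, plus strand), lipoprotein lipase, had 14, 11, 2, 15 and 10 counts in WT/WT mice of 12 months. The 304Q/304Q mice had 13, 64, 45, 50 and 62 counts. Replicates 2 to 5 of the knock-in lay far above every WT/WT mouse, and replicate 1, at 0.941 CPM, lay within the WT/WT range. Lpl was a DEG in the fit without a filter (log2 FC 2.22, SE 0.43, edgeR adjusted p = 0.000572), with a pooled ratio of 4.65 (counting interval 3.43 to 6.41). Apoe (ENSMUSG00000002985, chr7:19696109-19699188, minus strand), the main apolipoprotein of the brain, lay at 1220 to 1590 CPM in WT/WT and 1250 to 1340 CPM in 304Q/304Q mice. Its log2 FC was -0.19 (SE 0.0753, edgeR adjusted p = 0.0928), and 4 of the 5 WT/WT mice lay above all 5 knock-in mice.

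Neither Cd9 nor Spp1 was called. Cd9 (ENSMUSG00000030342, chr6:125460266-125494791, minus strand), a tetraspanin that is also abundant in myelinating cells, lay at 33.8 to 40.5 CPM in WT/WT and at 28.3 to 38.7 CPM in 304Q/304Q mice (log2 FC -0.22, SE 0.0822, edgeR adjusted p = 0.08). It shares its position with the genes Gm28809 and Gm26728 of the opposite strand, and the strand setting of the counting is not given in the sources used here. Spp1 (ENSMUSG00000029304, chr5:104435118-104441050, plus strand), the secreted phosphoprotein osteopontin, lay at 19.3 to 24.6 CPM in WT/WT and at 15.6 to 26.3 CPM in 304Q/304Q mice (log2 FC -0.09, SE 0.157, edgeR adjusted p = 0.738). It overlaps Gm42793 on its own strand. In neither gene were the 2 genotypes apart.

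The 304Q/304Q mice of 12 months also differed among themselves. Replicate 2 had the highest level of its group for 8 of the 10 genes, all but Tyrobp and Apoe, and replicate 1 had the lowest for 5. Replicates 1 and 3 were the knock-in libraries with choroid plexus RNA of that age, and replicate 2 was not. The part of this RNA in the order of the mice was not tested.

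Since choroid plexus and blood RNA were uneven between the libraries, the 12-month contrast was fitted again with each taken into account, choices made after the data were seen. With the choroid plexus level as a covariate Cd68 (0.71, adjusted p = 0.00647), Lyz2 (0.87, adjusted p = 0.00162), Itgax (2.52, adjusted p = 0.00776) and Lpl (2.08, adjusted p = 0.00206) stayed DEGs in edgeR. With the 6 libraries left out, 2 WT/WT and 3 304Q/304Q mice of 12 months remained. Then Itgax (2.89, adjusted p = 0.0226) and Lpl (2.85, adjusted p = 0.000145) were DEGs, while Cd68 (0.47, adjusted p = 0.221) and Lyz2 (0.78, adjusted p = 0.0771) no longer passed. With the blood level as a covariate it was the reverse: Cd68 (1.08, adjusted p = 0.00395) and Lyz2 (1.25, adjusted p = 0.00137) were DEGs, and Itgax (2.52, adjusted p = 0.225) and Lpl (2.10, adjusted p = 0.0624) were not. The log2 FC of all 4 genes stayed positive in each of these fits. Blood levels did not overlap between the genotypes at 12 months. Calls gained or lost with the blood covariate, here and below, therefore cannot be assigned to blood or to genotype. With 3 surrogate variables Cd68 (0.58, adjusted p = 0.0625 in DESeq2 and 0.0925 in edgeR) and Lpl (1.62 and 1.60, adjusted p = 0.109 and 0.0578) also no longer passed, and Itgax lost its call in DESeq2 (2.50, adjusted p = 0.0764). With each library left out in turn all 4 stayed DEGs, at log2 FC of 0.63 to 0.84 for Cd68, 0.74 to 0.95 for Lyz2, 2.40 to 2.85 for Itgax and 1.96 to 2.47 for Lpl.

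At 2 months none of the 10 genes passed the test by genotype. The number of DEGs among them was 0, with and without the filter on low counts, where 0.00823% and 0.0103% of all genes were called in edgeR, and DESeq2 called 0 as well. An unadjusted p under 0.05 was reached by 0 of the 7 genes, beside 5.55% of all 12153 genes. Lyz2 had 4.83, 4.57, 6.14, 7.48 and 4.47 CPM in WT/WT mice and 4.77, 6.19, 6.45, 5.0 and 6.39 CPM in 304Q/304Q mice. Cd68 had 3.54, 3.91, 5.33, 4.41 and 4.86 CPM in WT/WT mice and 4.44, 4.38, 5.27, 4.86 and 5.89 CPM in 304Q/304Q mice. Both genes overlapped throughout, with log2 FC of 0.06 (adjusted p = 0.982) and 0.17 (adjusted p = 0.95). Trem2 spanned 2.51 to 3.81 CPM in WT/WT and 1.67 to 4.4 CPM in 304Q/304Q mice, the widest spread relative to its mean among the 7 genes tested in the knock-in mice. Itgax was at 0 in 3 of the 5 mice of each genotype and Cst7 at 0 in 1 WT/WT and 4 304Q/304Q mice. At these counts a fall or a small rise of either transcript was not detectable. The larger rise with age in 304Q/304Q mice, set against the same libraries of 2 months, did pass in edgeR without a filter (adjusted p = 0.00013 for Itgax and 0.00172 for Cst7). Lpl was detected in all 10 mice, at 5 to 25 counts, with the genotypes overlapping.

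**Figure D2:**
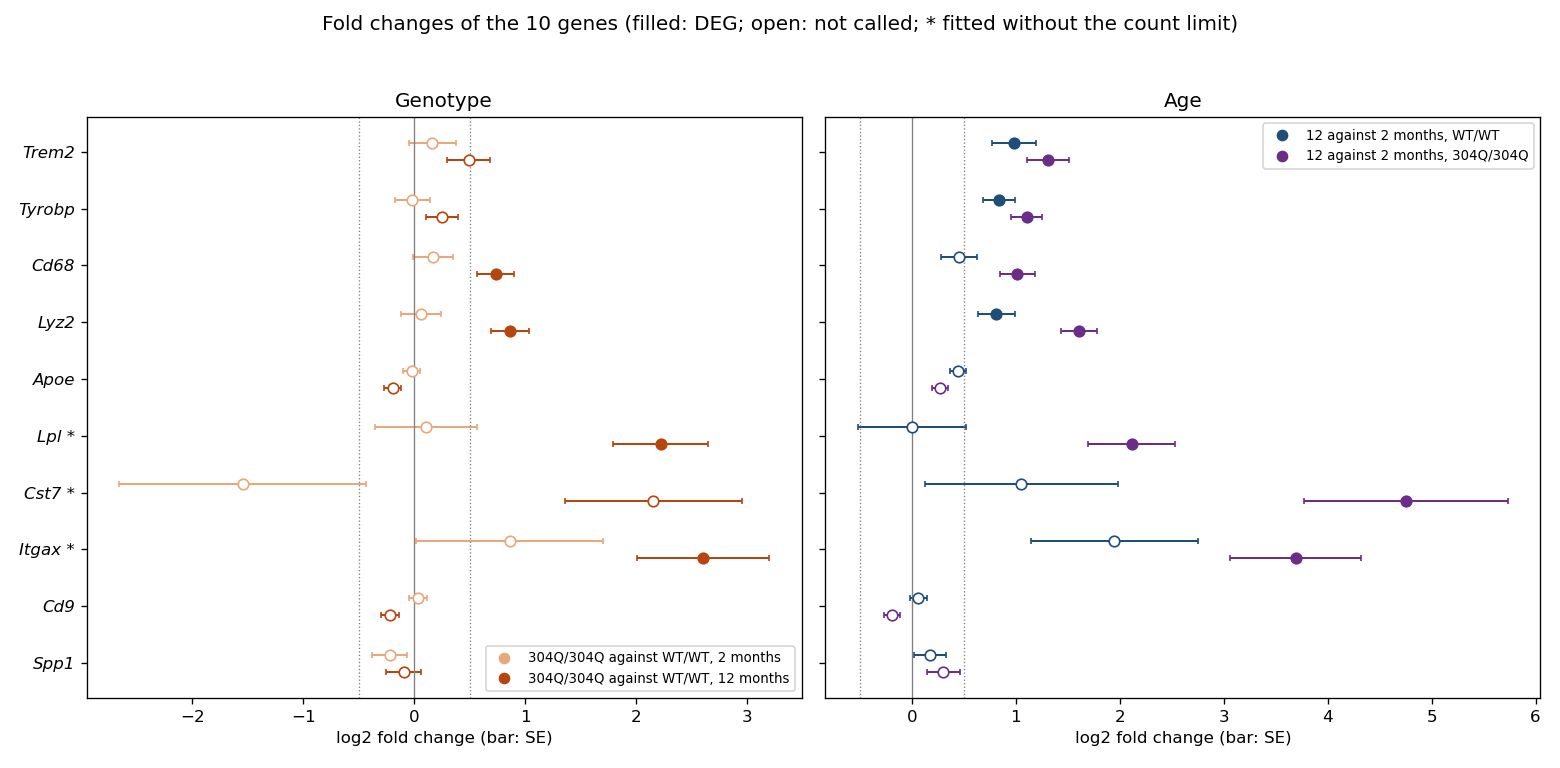
Log2 FC of each gene (horizontal axis) for genotype at 2 and 12 months (left) and for age in each genotype (right), with bars of 1 SE; filled points are DEGs, and dotted lines mark 0.5 in either direction. Starred genes (Cst7, Itgax, Lpl) are from the fit without a filter; the filled points by genotype are Cd68, Lyz2, Lpl and Itgax, all at 12 months.

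Between 2 and 12 months the receptor pair and Lyz2 rose in both genotypes, and Cd68, Cst7, Itgax and Lpl passed the test in 304Q/304Q mice. In WT/WT mice 3 of the 7 genes tested were higher DEGs with age, where 1.4% of all genes were: Trem2 (log2 FC 0.98, SE 0.208, adjusted p = 0.00415), Tyrobp (0.84, SE 0.152, adjusted p = 0.00122) and Lyz2 (0.81, SE 0.179, adjusted p = 0.00551, all edgeR). For Trem2 and Tyrobp every WT/WT mouse of 12 months lay above every one of 2 months, beside 3.64% of all genes: Trem2 went from 2.65, 2.51, 2.91, 3.81 and 3.09 CPM at 2 months to the 4.47 to 7.97 CPM given above. Apoe had a higher level with an adjusted p of 0.000719, but its log2 FC of 0.44 lay under 0.5. Cd68 had a log2 FC of 0.45 with an adjusted p of 0.0944, and passed without WT/WT replicate 1 (0.53, adjusted p = 0.0401) or replicate 2 (0.55, adjusted p = 0.0492) of 12 months. Itgax had 3, 0, 0, 3 and 0 counts in WT/WT mice of 2 months against 3 to 8 at 12 months, a pooled ratio of 4.14 (counting interval 1.66 to 12.3) that did not pass in the fit without a filter (adjusted p = 0.191). Lpl had a pooled ratio of 1.01 in WT/WT mice, and Cst7, Cd9 and Spp1 were not called.

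In 304Q/304Q mice 4 of the 7 genes tested were higher DEGs with age, where 1.37% of all genes were: Lyz2 (1.61, SE 0.173, adjusted p = 9.92e-07), Trem2 (1.31, SE 0.2, adjusted p = 0.000103), Tyrobp (1.11, SE 0.149, adjusted p = 2.57e-05) and Cd68 (1.02, SE 0.168, adjusted p = 0.000268, all edgeR). Without a filter 7 of 10 were, against 0.777% of all genes. The 3 scarce genes made up the difference: Itgax went from 10, 0, 0, 0 and 6 counts at 2 months to 22 to 45 counts at 12 months (pooled ratio 12.2, counting interval 7.26 to 21.9, adjusted p = 0.00013). Cst7 went from 2 counts in the 5 mice together to 59 (pooled ratio 38.3, counting interval 10.1 to 324, adjusted p = 0.00172). Lpl went from 25, 14, 7, 19 and 5 counts to 13, 64, 45, 50 and 62 (pooled ratio 4.34, counting interval 3.31 to 5.76, adjusted p = 0.00106). For 7 of the 10 genes, all but Lpl, Cd9 and Spp1, no 304Q/304Q mouse of 12 months overlapped with one of 2 months, beside 1.88% of all 29200 genes. The age and genotype contrasts share mice, so these values are set side by side and not counted as separate evidence. With the blood level as a covariate Lyz2 lost its call in WT/WT mice (0.55, adjusted p = 0.144).

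The difference between the genotypes in the change with age was tested as an interaction, and none of the 10 genes passed in edgeR, with or without the filter, where 0.938% and 0.401% of all genes did; 3 of the 7 abundant genes, Lyz2, Cd68 and Cd9, had an unadjusted p under 0.05, and 15.9% of all 12153 genes did. Lyz2 came closest among the 7 abundant genes, with an interaction of 0.80 on the log2 scale (SE 0.249, adjusted p = 0.103), and it passed in DESeq2 (0.80, adjusted p = 0.0461). Lpl had an interaction of 2.12 (adjusted p = 0.133), which passed without 304Q/304Q replicate 1 of 12 months (2.36, adjusted p = 0.0422), without WT/WT replicate 1 of that age (2.27, adjusted p = 0.0435) and with the libraries that held choroid plexus left out (2.63, adjusted p = 0.017). Cd68 (0.56, adjusted p = 0.265), Trem2 (0.33, adjusted p = 0.596) and Tyrobp (0.26, adjusted p = 0.555) did not pass.

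The pan-microglia panel rose with age, and none of its 8 genes was a DEG by genotype. The panel was taken as a reading of how much microglial RNA a sample held, an assumption that was not tested. Their summed level was 128 to 154 CPM in WT/WT and 130 to 140 CPM in 304Q/304Q mice of 2 months, and 221 to 263 CPM and 226 to 277 CPM at 12 months. Of the 8 genes 7, all but Csf1r, were higher DEGs with age in each genotype. Ctss, the cysteine protease cathepsin S, had log2 FC of 1.06 in WT/WT (adjusted p = 6.55e-08) and 1.22 in 304Q/304Q mice (adjusted p = 2e-09), and C1qa, a chain of the first complement component, had 0.75 and 1.29. By genotype at 12 months 0 of the 8 were DEGs in edgeR, and 1 had an unadjusted p under 0.05, beside 27.3% of all 12153 genes, C1qa (log2 FC 0.33, adjusted p = 0.0443, under the limit on the fold change). Set against the panel in each mouse of 12 months, the mean log2 level of Lyz2 was -1.44 for WT/WT and -0.69 for 304Q/304Q mice, that of Cd68 was -2.11 and -1.47, that of Itgax -5.72 and -3.56, that of Trem2 -2.14 and -1.73, and that of Tyrobp -1.93 and -1.78. In the other direction it was 5.80 and 5.51 for Apoe, 0.56 and 0.23 for Cd9 and -0.29 and -0.51 for Spp1, while Lpl (-5 and -3.07) and Cst7 (-6.53 and -4.89) lay higher in 304Q/304Q mice; these differences were not tested. With the panel as a covariate, Cd68 (0.58, adjusted p = 0.0213), Lyz2 (0.68, adjusted p = 0.00676), Itgax (2.30, adjusted p = 0.031) and Lpl (2.47, adjusted p = 0.000643) were still DEGs by genotype at 12 months in edgeR.

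**Figure D3:**
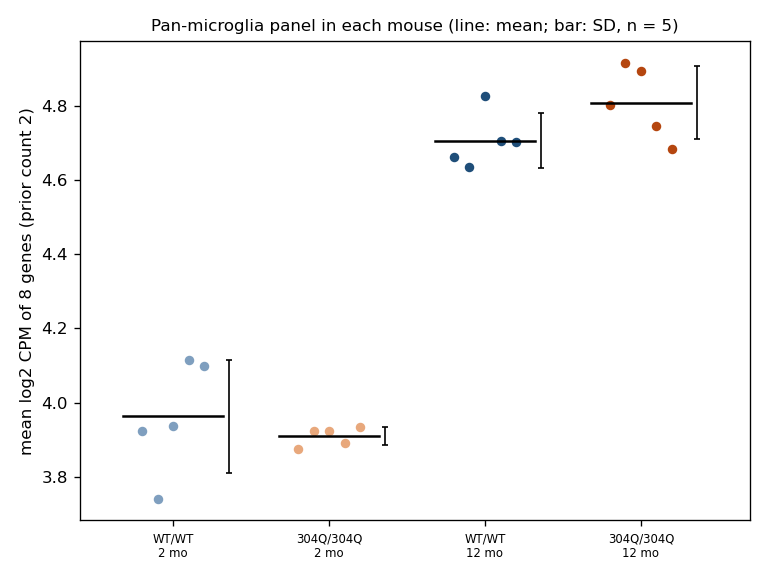
Mean log2 CPM of the 8 pan-microglia genes (vertical axis) in every mouse by group; lines give the group mean and bars the SD over 5 mice. Both groups of 12 months, with means of 4.71 and 4.81, lie above both groups of 2 months, with means of 3.96 and 3.91.

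Over the 20 mice, with the group means removed, the levels of the 7 abundant genes were set against the panel (7 relations, permutation within groups). Pearson's r was 0.586 for Spp1 (permutation p = 0.0231, adjusted p = 0.0807), 0.564 for Apoe (0.0528 and 0.0925), 0.55 for Cd68 (0.0172 and 0.0807), 0.523 for Lyz2 (0.0454 and 0.0925), 0.333 for Cd9 (0.19 and 0.222), 0.295 for Trem2 (0.0856 and 0.12) and -0.156 for Tyrobp (0.653 and 0.653). None passed after adjustment. Spearman's rho was 0.629 for Cd68 and 0.602 for Spp1, each with an adjusted permutation p of 0.0452, and for the others the adjusted p lay at 0.0519 or above. Without the 2 mice farthest from the median of the panel, r was 0.635 for both Cd68 and Spp1, 0.571 for Cd9, 0.424 for Apoe, 0.395 for Lyz2, 0.142 for Trem2 and -0.15 for Tyrobp. Among these deviations r was 0.198 between Trem2 and its adaptor Tyrobp, 0.634 between Trem2 and Spp1 and 0.55 between Cd68 and Lyz2, given as descriptions over 20 mice whose libraries supply both genes of a pair.

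No homeostatic microglia gene was a lower DEG. Of 10 such genes 8 were tested and 0 were DEGs at 12 months in edgeR, with 1 at an unadjusted p under 0.05 (27.3% of all genes); their median log2 FC was 0.18, beside -0.00386 for all genes tested. P2ry12, a purinergic receptor, had a log2 FC of 0.36 (adjusted p = 0.275) and Cx3cr1, the fractalkine receptor, 0.32 (adjusted p = 0.0855). Without a filter Fcrls, a receptor-like protein of resident microglia, was a higher DEG (0.94, adjusted p = 0.0184). The call of Fcrls was lost without WT/WT replicate 2 (0.82, adjusted p = 0.0653) or 304Q/304Q replicate 1 (0.80, adjusted p = 0.0869) of 12 months, without the 6 choroid plexus libraries (0.64, adjusted p = 0.492) and with the blood (0.82, adjusted p = 0.297) or panel covariate (0.81, adjusted p = 0.0661). With age 2 of the 8 rose in WT/WT (Tmem119 by 0.73 and Selplg by 0.66) and 3 in 304Q/304Q mice (Olfml3 by 0.65, Cx3cr1 by 0.62 and Selplg by 0.59).

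A further list of 26 genes of the disease-associated state was mixed at 12 months. Of the 20 tested 3 were higher DEGs and 1 was a lower one, beside 1.26% and 1.83% of all genes, and the median log2 FC was 0.10. The higher ones were Gpnmb, a lysosome-associated glycoprotein (0.80, adjusted p = 0.0135), the growth factor Igf1 (0.71, adjusted p = 0.00734) and Cd83, a surface protein of activated antigen-presenting cells (0.73, adjusted p = 0.000579). The lower one was Fth1, the ferritin heavy chain (-0.57, adjusted p = 5.33e-05). Without a filter Clec7a, the receptor dectin-1, was a higher DEG as well: its mean was 0.904 CPM in WT/WT and 3.05 CPM in 304Q/304Q mice (log2 FC 1.75, adjusted p = 0.0121). Gpnmb (adjusted p = 0.26), Igf1 (0.145), Cd83 (0.086) and Clec7a (0.0725) no longer passed with the 6 libraries that held choroid plexus left out, nor did Gpnmb (0.315), Igf1 (0.0768) and Clec7a (0.137) with the blood covariate. With age, B2m and Lgals3bp rose in WT/WT (0.63 and 1.41) and in 304Q/304Q mice (0.67 and 1.30), Igf1 fell by 0.80 in WT/WT mice, and Gpnmb rose by 1.40 in 304Q/304Q mice.

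**Figure D4:**
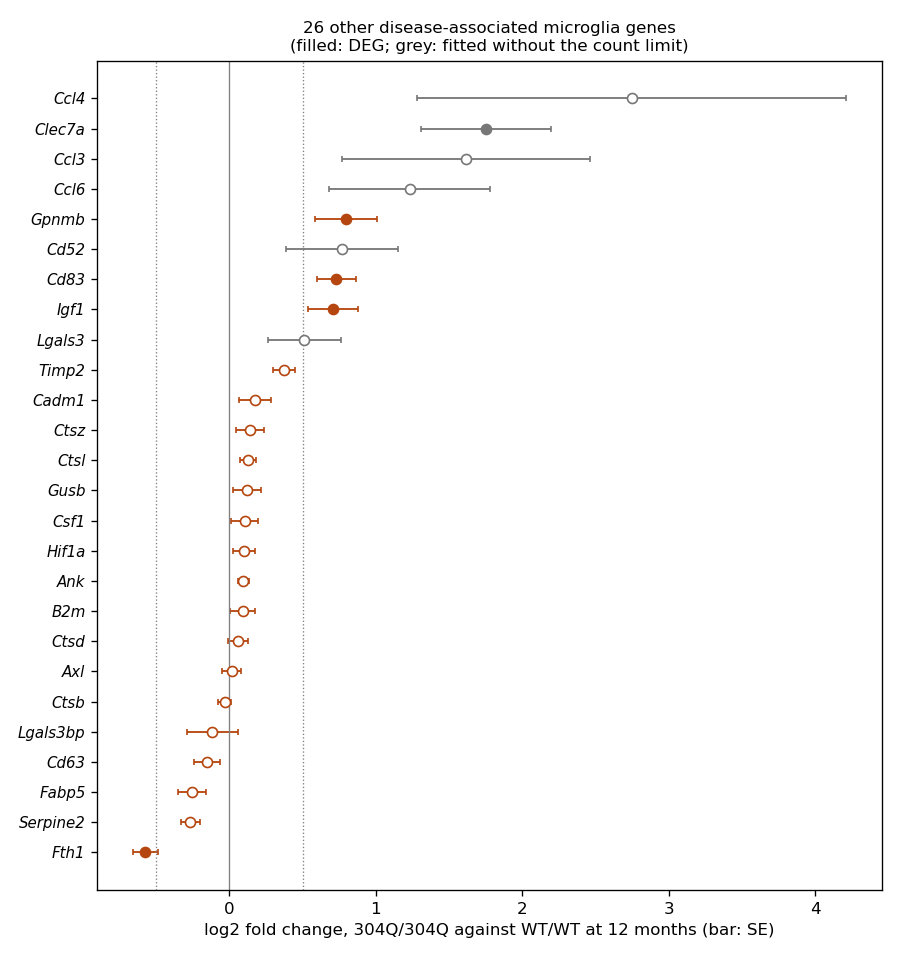
Log2 FC of the further genes of the disease-associated state at 12 months, 304Q/304Q against WT/WT, with bars of 1 SE; filled points are DEGs, and grey ones come from the fit without a filter. Gpnmb, Igf1, Cd83 and Clec7a lie to the right and Fth1 to the left, and the other points are open.

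Partners of the members were followed as well. Of 16 genes of Trem2 signalling 8 were tested, and 0 were DEGs at 12 months in edgeR, with 2 at an unadjusted p under 0.05 (27.3% of all genes) and a median log2 FC of 0.17, beside -0.00386 for all genes. Plcg2, the phospholipase downstream of the receptor, had 0.53 with an adjusted p of 0.135, and Adam10, a protease that sheds the receptor, 0.21 with 0.0594. The study, on these same samples, named Plcg2 among its genotype DEGs. With age 0 rose in WT/WT mice and 1 in 304Q/304Q mice, the phosphatase gene Inpp5d (0.73, adjusted p = 0.00418), while the kinase Syk rose there in the fit without a filter (1.34, adjusted p = 0.0332). Of 14 lipid handling partners of Apoe and Lpl 12 were tested and 0 were DEGs at 12 months in edgeR, with 6 at an unadjusted p under 0.05 (27.3% of all genes), of which 2 lay higher in 304Q/304Q mice. Plin2, a coat protein of lipid droplets, had 0.44 with an adjusted p of 0.0476, under the limit on the fold change, and the sterol exporter Abca1 had 0.24 with 0.0676. Nr1h3, the nuclear receptor LXR alpha, rose with age in WT/WT (0.70, adjusted p = 0.00136) and 304Q/304Q mice (0.63, adjusted p = 0.00273). Of 10 integrins and other partners of Itgax and Spp1 5 were tested, and 1, the osteopontin-binding subunit Itgav, was a higher DEG at 12 months (0.62, adjusted p = 0.00549), a call that was lost with surrogate variables (0.39 in DESeq2 and 0.38 in edgeR, under the limit on the fold change) and with the blood covariate (0.61, adjusted p = 0.0715), while Itgb5 had -0.33 (adjusted p = 0.000692, under the limit on the fold change).

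Markers of other cells that could carry the same transcripts were read beside these values, and the part of such cells in the levels of the 10 genes was not tested. The 10 markers of monocytes and neutrophils, which also make Lyz2, summed to 0.706 to 1.95 CPM in WT/WT and 0.767 to 2.54 CPM in 304Q/304Q mice of 12 months, with none at 0 in all libraries of either group and none called in the fit without a filter. The 9 markers of border macrophages summed to 17.2 to 21.9 CPM in WT/WT and to 15.3 to 18.5 CPM in 304Q/304Q mice, which overlap; Stab1, the only one tested with the filter, was not called, and the scavenger receptor Cd163 was a lower DEG without it (-1.23, adjusted p = 0.0143), but not with the choroid plexus libraries left out (-0.79, adjusted p = 0.485). Among the 10 markers of myelinating oligodendrocytes, which also make Cd9, Mobp (-0.80) and Mal (-0.61) were lower DEGs, and the list summed to 5290 to 6020 CPM in WT/WT and to 3470 to 4810 CPM in 304Q/304Q mice. Of the 10 markers of astrocytes and Bergmann glia, the main source of Apoe, 2 were lower DEGs (Gdf10 -0.66, Aldh1l1 -0.52), with sums of 3900 to 4120 CPM and 3670 to 3820 CPM. Of the other lists 4 of 5 blood genes (Hba-a1, Hba-a2, Hbb-bs and Hbb-bt, at -1.13 to -0.90) and 2 of 8 Purkinje cell genes (Pcp2 -0.59, Rgs8 -0.53) were lower DEGs, and 0 of the choroid plexus, meninges, endothelium and granule cell genes were called by genotype at 12 months.

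**Figure D5:**
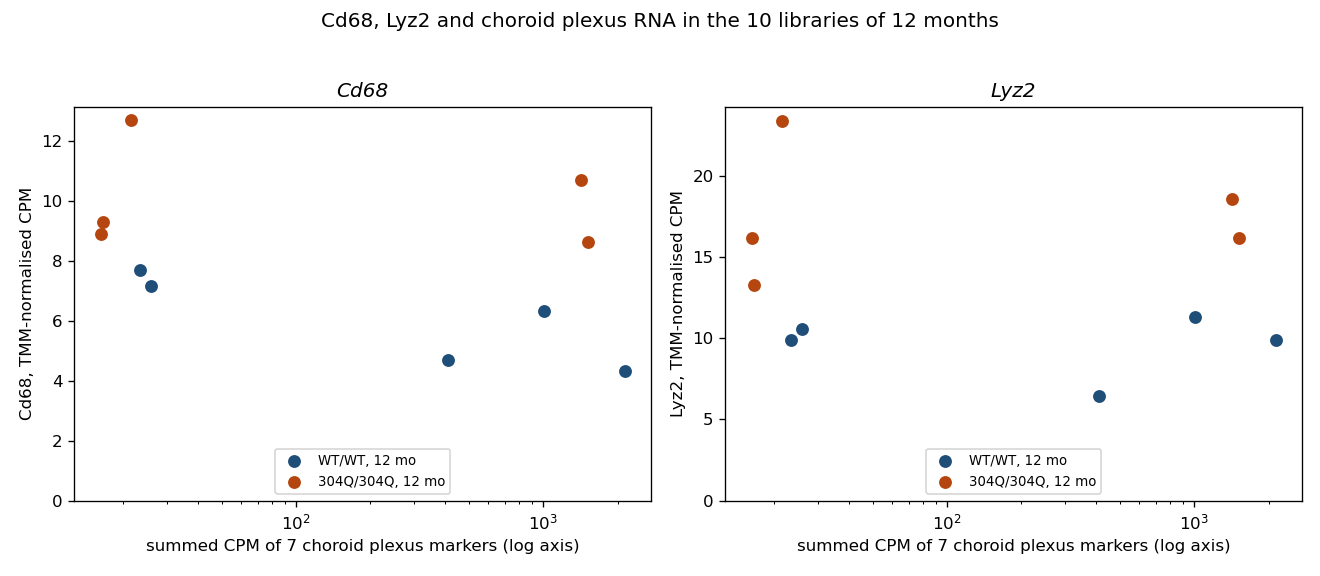
Levels of Lyz2 and Cd68 in the mice of 12 months against the summed level of the choroid plexus markers (horizontal axis, CPM, log scale), by genotype; each point is 1 mouse. Libraries with and without choroid plexus RNA occur in both genotypes, and the 304Q/304Q mice lie above the WT/WT mice at either end of the axis.

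Levels can be compared between genes per length, as CPM per kilobase of exon (RPKM). In WT/WT mice of 2 months the order was Apoe (501 ± 69.4 RPKM, SD, n = 5), Cd9 (18 ± 0.89), Spp1 (11.4 ± 2.66), Tyrobp (5.68 ± 1.03), Lyz2 (4.18 ± 0.984), Cd68 (3.51 ± 0.571), Trem2 (0.605 ± 0.103), and then Cst7, Lpl and Itgax, all under 0.1. Tyrobp and Lyz2, Lyz2 and Cd68, and the last 3 genes overlapped with their neighbours in this order, and the other steps did not. In 304Q/304Q mice of 12 months Apoe (595 ± 17.4) and Cd9 (16.1 ± 2.35) still came first. Lyz2 stood in place 3 there (13.3 ± 2.87) and in place 5 in WT/WT mice of that age (7.32 ± 1.43), but it overlapped with Cd9 and Spp1 (12.2 ± 2.95). Itgax (0.483 ± 0.158), Cst7 (0.914 ± 0.548) and Lpl (0.346 ± 0.149) remained the scarcest, below Trem2 (1.68 ± 0.128), with which Cst7 overlapped.

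The genes whose deviations from the group means followed the mean deviation of Trem2, Tyrobp and Cd68 most closely over the 20 mice were Bcan (Pearson's r = 0.808), Rogdi (0.803), Zfp811 (0.783), Mmgt2 (0.755), Rack1 (0.752), Tuba1a (0.746), Aimp1 (0.746) and Flywch2 (0.735), out of 12146 genes compared. No gene of the pan-microglia panel was among them, where r ran from -0.092 for Fcer1g to 0.517 for C1qc. These are descriptions of 20 libraries with few counts of the 3 genes, and none of the 8 was a DEG by genotype at either age.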

How the data were processed

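Cerebellar RNA of 20 mice was sequenced as polyA-enriched, stranded, paired-end libraries. The raw counts per Ensembl gene that the authors deposited were used as they stand (reads placed on GRCm38 by STAR, gene counting by Rsubread); the strand setting and the handling of reads with several matches are not given in the sources used here. GENCODE M21 gave symbols for 29150 of 29200 gene IDs.

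The 12153 genes that averaged 50 counts or more were tested in R 4.3.3 with edgeR 4.0.16: TMM scaling, a quasi-likelihood fit of the 4 groups, and Benjamini-Hochberg adjustment over all genes tested. The common biological coefficient of variation was 0.113, and 3 of the 10 genes lay under the limit and were tested in a fit of all 29200 genes. Levels are CPM of the TMM-scaled libraries, with a prior count of 2 on the log2 scale. Intervals of pooled ratios cover counting error only. Permutation tests were two-sided and, between groups, exact.

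Alternatives were DESeq2 1.42.0, 3 surrogate variables of sva 3.50.0, DESeq2 size factors, a block for the replicate number, other filters, fits restricted to the 2 groups of a contrast, the panel as a covariate and each library left out; the choroid plexus and blood alternatives were added after the data were seen. In counts simulated for the 12-month contrast edgeR found 192 of the 200 genes given a change, plus 3 others, out of 12153. The labels do not say whether mice came from separate litters, so the p-values measure the spread between these mice. Replicates of a group differed beyond sampling noise, with chi-square values of at least 4.43 per degree of freedom. Some genes of the lists are not reported here. The 10 genes and all lists were chosen with earlier results of these data known. Of each other list the genes called by genotype or interaction were named (at most 6), or else the 2 with the lowest p at 12 months, plus the 2 lowest in each age contrast; markers of other cells are mostly given as counts and sums, and genes named from the fit without a filter were chosen after their values were seen.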

Additional observations from a re-analysis of the deposited data

Results flagged for a closer look

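Among the 10 genes, 6 groups of 5 mice had 1 mouse set apart from the other 4 by Dixon's test, which chance alone gives in about 1 of 20 groups; 40 groups were looked at. Lpl in 304Q/304Q replicate 1 of 12 months had 0.941 CPM, where the other 4 mice had 3.84 to 4.99 CPM; this library held 1520 CPM of choroid plexus markers, replicate 3 held 1420 CPM with Lpl inside the range of the others, and the part of choroid plexus RNA in the low value was not tested. Tyrobp stood apart in 3 groups: at 2.56 CPM in WT/WT replicate 5 of 2 months (others 4.02 to 4.2), at 4.54 CPM in 304Q/304Q replicate 3 of 2 months (others 3.4 to 3.7) and at 7.27 CPM in 304Q/304Q replicate 5 of 12 months (others 8.11 to 8.36). Apoe was 1340 CPM in 304Q/304Q replicate 3 of 12 months, where the others lay at 1250 to 1260 CPM. Cst7 was 0.143 CPM, from 2 counts, in 304Q/304Q replicate 4 of 2 months, where the other 4 had none.

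In the lists read beside these genes, 6 genes had a change between genotypes that differed between the ages by the interaction test of edgeR. Cd83 (0.789 on the log2 scale) and Itgav (0.846) lay higher in 304Q/304Q relative to WT/WT mice at 12 than at 2 months. Gdf10 (-0.592), Hba-a1 (-1.17), Hba-a2 (-1.42) and Pcp2 (-0.649) lay lower. Some of these calls changed with the libraries, and all with the blood level, a sum that holds Hba-a1 and Hba-a2 themselves. Leaving out 1 library ended that of Cd83 for 5 of 20 libraries (304Q/304Q replicates 1 and 2 of 2 months, WT/WT replicates 3 and 5 and 304Q/304Q replicate 4 of 12 months; adjusted p 0.0506 to 0.0616). It ended that of Itgav for 10 (WT/WT replicates 2 and 3 and 304Q/304Q replicates 1, 2 and 3 of 2 months, WT/WT replicates 3, 4 and 5 and 304Q/304Q replicates 2 and 4 of 12 months; 0.0511 to 0.0691), that of Hba-a1 for 15 (WT/WT replicates 1, 2 and 5 and 304Q/304Q replicates 1, 2, 4 and 5 of 2 months, WT/WT replicates 2 to 5 and 304Q/304Q replicates 1 to 4 of 12 months; 0.053 to 0.0894) and that of Hba-a2 for 10 (WT/WT replicates 2 and 5 and 304Q/304Q replicates 1 and 2 of 2 months, WT/WT replicates 2, 3 and 5 and 304Q/304Q replicates 1, 2 and 4 of 12 months; 0.0508 to 0.0809). With the blood covariate none of the 6 passed (adjusted p 0.219 for Cd83, 0.23 for Itgav, 0.102 for Gdf10, 0.917 for Hba-a1, 0.674 for Hba-a2 and 0.201 for Pcp2). For Hba-a1 and Hba-a2 this loss was fixed in advance, since both are part of the covariate, and nothing is drawn from it. Over all alternatives the call was lost in 8 of 32 for Cd83, 13 of 32 for Itgav, 1 of 32 for Gdf10, 19 of 32 for Hba-a1, 15 of 31 for Hba-a2 and 3 of 32 for Pcp2.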

How the results depend on the processing

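At 12 months 2 of the 7 genes tested with the main filter were higher DEGs. The number was 1 with surrogate variables in DESeq2 or in edgeR, and 1 with at least 50 counts in every library, where fewer genes were tested. It was 3 with a mean of at least 10 counts, where Lpl was called too, and 4 with no filter. It was 0 with the libraries that held choroid plexus left out, where fewer mice remained. With age in WT/WT mice it was 3, and 1 with at least 50 counts in every library and 0 with the panel as a covariate. In that panel fit 0 of all 12153 genes were called with age for WT/WT and 4 for 304Q/304Q mice, so that it says nothing about these genes. With age in 304Q/304Q mice the number was 4, and 1 with at least 50 counts in every library and 0 with the panel as a covariate. There it was 5 with a mean of at least 10 counts and 7 with no filter. The interaction gave 0, and 1 (Lyz2) in DESeq2 with or without surrogate variables (adjusted p = 0.0461 and 0.0281). With each library left out the number was 2 to 3 by genotype at 12 months, 3 to 5 with age in WT/WT mice, 4 to 4 in 304Q/304Q mice and 0 to 0 otherwise. The 5 came without WT/WT replicate 1 of 12 months, where Cd68 (0.53) and Apoe (0.50) passed as well. The number stayed 0 at 2 months in every fit run. Of 169 alternatives for these counts 13 moved by over 1.5 times.

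The replicate numbers did not pair the mice: same-numbered mice of 2 groups had deviations correlated from -0.323 to 0.551, with 4 of 20 pairs above 0.1, and 4 of 20 mice correlated best with their own number. With the replicate block the number of DEGs among the genes was 0 at 2 months, 2 at 12 months, 3 and 4 with age and 0 for the interaction without the low-count genes; Lpl passed the interaction test under the block (2.14, adjusted p = 0.00829).

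The sign turned in these cases, none of which passed the test in either fit unless a call is given in the report. With the panel as a covariate, which itself rose with age, the change with age in WT/WT mice was -0.676 for Cd68, -0.4126 for Lyz2, -0.125 for Apoe, -1.116 for Cst7, -0.0424 for Itgax, 1.516 for Lpl, -0.2478 for Cd9 and -1.065 for Spp1, and in 304Q/304Q mice -0.3506 for Cd68, -0.4207 for Apoe and -1.239 for Spp1. The same covariate gave 0.02426 for Apoe at 2 months and -0.1745 for the interaction of Spp1, which was -0.02028 with the blood covariate. Lyz2 at 2 months was -0.01795 and -0.02061 with surrogate variables in DESeq2 and edgeR and -0.02453 with the blood covariate. Lpl with age in WT/WT mice was 0.6242 and 0.623 with surrogate variables, 0.2957 with the choroid plexus covariate and 0.06656 with the blood covariate. Hbb-bs at 12 months was 0.03648 with the blood covariate, a sum that holds Hbb-bs itself, so nothing is drawn from this value. With each library left out, Tyrobp at 2 months ranged from -0.1341 to 0.02312, Lyz2 from -0.007455 to 0.1991, Apoe from -0.07027 to 0.03681 and Lpl from -0.1234 to 0.4021; Lpl with age in WT/WT mice ranged from -0.1733 to 0.2969 and the interaction of Spp1 from -0.01962 to 0.2026. The causes were not tested.

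Over all genes, the count called was 314 with age in WT/WT mice, 595 without WT/WT replicate 1 of 12 months and 0 with the panel as a covariate; it was 277 and 4 with age in 304Q/304Q mice, 114 for the interaction (17 with the blood covariate, 265 without WT/WT replicate 1 of 12 months) and 1 at 2 months (8 to 10 in DESeq2 or with surrogate variables). Depth limits Cst7, Itgax and Lpl, whose libraries hold 0 to 64 counts, and Trem2, Tyrobp, Cd68 and Lyz2, at 27 to 300 counts, where counting error is a part of the spread between mice.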
